A study of Mus musculus with 12 samples.

Results

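The eicosanoid synthesis enzymes are 10 genes whose products turn arachidonic acid into prostaglandins, leukotrienes and related lipids. They were chosen by symbol and not by level, as the rows of the table of estimated counts of all 55281 annotated genes that carry the names Ptgs1, Ptgs2, Hpgds, Ptgds, Ptges, Ptgis, Alox5, Alox5ap, Ltc4s and Alox15. Each symbol matched 1 row, and all 10 passed the filter on low counts together with 18427 genes in all. Of the 10, 6 belong to the prostaglandin branch, 3 belong to the leukotriene branch, and Alox15, a 12/15-lipoxygenase, was kept apart from both.

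Arachidonic acid is released from membrane phospholipids by phospholipases. The cyclooxygenases Ptgs1 and Ptgs2 convert it to prostaglandin H2, which terminal synthases then turn into prostaglandin D2, prostaglandin E2 or prostacyclin, whereas Alox5, helped by the membrane protein Alox5ap, converts it to leukotriene A4, the substrate of Ltc4s. In adipose tissue, prostaglandin E2 restrains lipolysis in adipocytes, and enzymes of the leukotriene branch are known chiefly from macrophages, mast cells and other leukocytes.

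Libraries of polyadenylated RNA were made from gonadal white adipose tissue (GWAT) of male mice aged 22 to 24 weeks. HoipA-KO mice were Hoip fl/fl AdipoQ.Cre+, in which the adiponectin promoter drives Cre in mature adipocytes and deletes Hoip, the catalytic subunit of the complex that makes linear ubiquitin chains. WT mice were Hoip fl/fl AdipoQ.Cre- and carry the same floxed alleles. From 6 weeks of age, both genotypes received for 16 weeks either a control diet (CD) labelled as 14% fat or a high-fat diet (HFD) labelled as 60% fat. The 4 groups were WT on CD, WT on HFD, HoipA-KO on CD and HoipA-KO on HFD, each with 3 libraries, and each library pooled RNA of 3 mice. Cells of the tissue other than adipocytes keep Hoip in every group.

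The libraries held 30513500 to 60540260 estimated counts, so 3 counts corresponded to 0.0534 to 0.0987 CPM, the unit of all levels here (counts scaled to a common library size by the trimmed mean of M values, TMM, over all 12 libraries). All levels of the 10 enzymes lay above that floor. In all, 7 libraries held genes that exceeded every other library by more than 8 times, 4 of them 1 to 16 such genes (at most 0.025% of counts) and 3 of them many more. WT CD replicate 3 had 3804 such genes, holding 19.8% of its counts and led by Prm2 and Odf2 of sperm cells, and as in the comparisons deposited with the series it was left out of the tests, so that WT on CD had n = 2. WT CD replicate 2 had 364 such genes, holding 6.84% of its counts and led by the epididymal gene Crisp1, and HoipA-KO HFD replicate 1 had 57, holding 1.12% of its counts and led by Akr1b7 and the smooth muscle gene Myh11. Both were kept, and values without them are given where a result rests on them. In the libraries tested, summed adipocyte markers ranged from 21120 to 48260 CPM in WT on CD, 21538 to 29147 CPM in WT on HFD and 5516 to 9109 CPM over both HoipA-KO groups, so markers of the labelled tissue were present throughout. Rnf31, the gene that encodes HOIP, ranged from 12.6 to 22.5 CPM, with log2 fold changes of -0.08 ± 0.14 (SE) on CD and 0.13 ± 0.12 (SE) on HFD, and its level in whole tissue therefore did not check the genotype labels.

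Sequence upstream of the transcription start was available for 7 of the 10 enzymes (RefSeq, GRCm38.p6). It is shown for both cyclooxygenases, which were high together in a single HoipA-KO library, and for Alox5 and a site of Hpgds, which rose together on CD. Each of the first 3 stretches is the 250 bases before the start on the coding strand, ending at the base before it, and capitals mark the matched motif. For Hpgds, 30 bases around a match are shown, since the window before its RefSeq start lies partly inside the gene as GENCODE annotates it. These 30 bases lie wholly inside that annotated gene.

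Ptgs1, chr2:36230176-36230425, plus strand: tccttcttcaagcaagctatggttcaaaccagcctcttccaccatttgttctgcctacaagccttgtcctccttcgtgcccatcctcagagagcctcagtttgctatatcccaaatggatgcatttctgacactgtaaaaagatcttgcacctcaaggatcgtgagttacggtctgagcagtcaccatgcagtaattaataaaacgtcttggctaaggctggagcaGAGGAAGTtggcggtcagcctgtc

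Ptgs2, chr1:150099781-150100030, plus strand: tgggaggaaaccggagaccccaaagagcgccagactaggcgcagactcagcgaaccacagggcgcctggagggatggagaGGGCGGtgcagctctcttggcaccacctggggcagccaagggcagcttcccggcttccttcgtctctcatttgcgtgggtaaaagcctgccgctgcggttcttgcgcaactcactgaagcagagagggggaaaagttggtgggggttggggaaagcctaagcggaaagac

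Alox5, chr6:116461179-116461428, minus strand: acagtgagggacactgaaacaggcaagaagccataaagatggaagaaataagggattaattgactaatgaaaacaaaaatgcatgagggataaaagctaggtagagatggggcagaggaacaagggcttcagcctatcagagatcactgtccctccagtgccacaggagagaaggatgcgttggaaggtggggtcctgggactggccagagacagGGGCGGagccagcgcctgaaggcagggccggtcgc

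Hpgds, chr6:65144761-65144790, minus strand: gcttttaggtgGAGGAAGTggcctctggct

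In all, 5 motifs were searched on both strands of these 250 bases. The letters GAGGAAGT, bound by the myeloid factor PU.1, were found 24 to 17 bases before the start of Ptgs1 and 49 to 42 bases before the RefSeq start of Hpgds, against 2.44% of the 32851 promoters in the same table. By the GENCODE annotation the match of Hpgds lies inside the gene and not before it. The GC box GGGCGG, in 32.7% of all promoters, was found in Ptgs2, Alox5 and Ptges, and the AP-1 letters TGANTCA, in 6.75% of all promoters, were found in Ptgds. Neither the TATA box TATAAA (12.4% of all promoters) nor the cyclic AMP response core ACGTCA (6.47%) was found in the 7 windows, Ltc4s held none of the 5 motifs, and no matches overlapped. The windows of Ptgds, Ptges and Ltc4s, like that of Hpgds, lie at least partly inside the gene as GENCODE annotates it. A match describes these letters only.

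On CD, 3 of the 10 enzymes were higher in HoipA-KO than in WT (Hpgds, Alox5ap and Alox5) and 1 was lower (Ptgds), where 37.7% of all genes tested were called, 18.9% higher and 18.8% lower. For the 10 together the log2 fold changes had a median of 0.64, against -0.06 over all genes tested. In WT mice, Hpgds and Alox5ap were called higher and Ptgds lower on HFD than on CD, 3 of 10 against 14.8% of all genes (9.35% higher and 5.47% lower), with a median of 0.60 for the 10 and 0.0036 for all genes. On HFD, edgeR's quasi-likelihood test called none of the 10 between genotypes, where it called 11.8% of all genes (4.2% higher and 7.62% lower). Of the 10, 5 had an unadjusted p under 0.05 in that comparison, as did 5812 of all 18427 genes. DESeq2 called 3 of the 10, and 4410 of the 18189 genes to which it gave an adjusted p. The median over the 10 was 1.10 on the log2 scale against 0.06 over all genes. Without HoipA-KO HFD replicate 1 that median was 0.16. Between diets in HoipA-KO mice, 0% of all genes were called, with 415 genes at an unadjusted p under 0.05 and 7 called by DESeq2. Of the 10 enzymes in that last comparison, 1 (Ptgs2) had an unadjusted p under 0.05 and DESeq2 called 0.

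**Figure D1:**
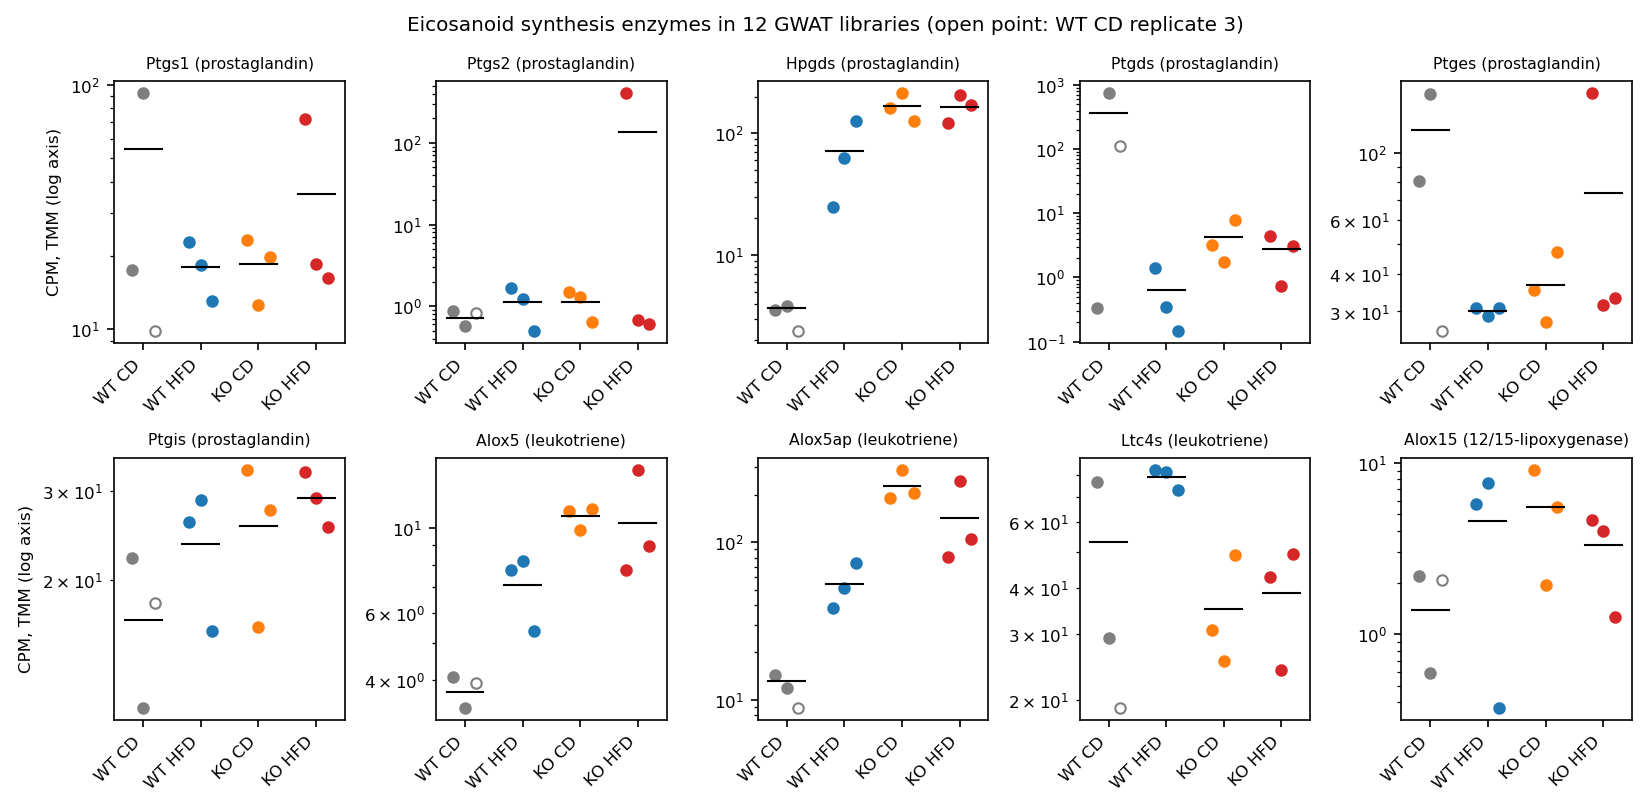
Level of each enzyme in CPM (log axis, different in each panel) in the 12 libraries by group. Points are libraries, black lines are means over the libraries tested, and the open point is WT CD replicate 3, which was left out of the tests. Hpgds and Alox5ap lie above WT CD in every library of the other 3 groups, whereas the means of Ptgs2 in HoipA-KO on HFD and of Ptgds in WT on CD are set by 1 library each.

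Ptgs1, the largely constitutive cyclooxygenase (chromosome 2, 36230426 to 36252272), was measured at 17.5 and 92.0 CPM in WT on CD, at 22.6, 18.3 and 13.0 CPM in WT on HFD, at 23.2, 12.6 and 19.8 CPM in HoipA-KO on CD and at 72.4, 18.4 and 16.2 CPM in HoipA-KO on HFD. The 2 high values belong to the 2 libraries that stood apart, WT CD replicate 2 and HoipA-KO HFD replicate 1, and the other 9 libraries lay within 12.6 to 23.2 CPM. None of the comparisons called Ptgs1: the log2 fold change of HoipA-KO against WT was -1.56 ± 0.74 (SE) on CD and 0.99 ± 0.68 (SE) on HFD, with adjusted p of 0.122 and 0.34. Without WT CD replicate 2 the value on CD was 0.09, and without HoipA-KO HFD replicate 1 the value on HFD was -0.05. Leaving out WT CD replicate 1 gave -2.31 on CD with an adjusted p of 0.0312, and leaving out HoipA-KO HFD replicate 1 gave -1.70 with an adjusted p of 0.0472.

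Ptgs2, the inducible cyclooxygenase of inflammation (chromosome 1, 150100031 to 150108227), was near 1 CPM in 11 of the 12 libraries, between 0.496 and 1.68 CPM. It stood at 0.883 and 0.574 CPM in WT on CD, 1.68, 1.25 and 0.496 CPM in WT on HFD, 1.49, 1.29 and 0.651 CPM in HoipA-KO on CD, and 402, 0.676 and 0.605 CPM in HoipA-KO on HFD. HoipA-KO HFD replicate 1 was thus 239 times the next highest library, while the other 2 libraries of its group lay among the WT values. Among the 57 genes that stood apart in this library, Ptgs2 ranked 5 by level, after Akr1b7 (5873 CPM, at most 50.4 CPM elsewhere), Myh11 (1418 CPM), Tpm2 (619 CPM) and Cnn1 (494 CPM), the last 3 being contractile genes of smooth muscle. The mural cell markers, which include Myh11, summed to 2965 CPM there and to at most 790 CPM in the other libraries. Epididymal markers summed to 1362 CPM in the same library, of which Crisp1 alone was 1282 CPM, against 4.33 and 119.7 CPM in the other 2 libraries of its group. Epcam, Krt8 and Lcn5 were also higher there than in HoipA-KO HFD replicate 3. Lcn8, Lcn9, Adam7, Rnase10 and Spag11b were instead higher in that replicate 3. In WT CD replicate 2 the epididymal markers summed to 15160 CPM at a Ptgs2 level of 0.574 CPM. The part of either set of markers in the Ptgs2 level was not tested. The log2 fold change on HFD was 6.90 ± 2.20 (SE) with an adjusted p of 0.0683, and without this library it was -0.82 with an adjusted p of 0.36.

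Hpgds, the haematopoietic prostaglandin D synthase of mast cells, macrophages and some T cells (chromosome 6, 65117293 to 65144908), showed the largest rise among the 10 on CD. Its levels were 3.56 and 3.85 CPM in WT on CD, 24.7, 63.0 and 125.8 CPM in WT on HFD, 162, 213 and 125.6 CPM in HoipA-KO on CD, and 121, 204 and 171 CPM in HoipA-KO on HFD. Every library of the other 3 groups lay above both WT CD libraries, and WT CD replicate 3, which was not tested, was lower still at 2.38 CPM. HoipA-KO on CD was 45.1-fold above WT on CD (log2 5.50 ± 0.69 SE, adjusted p 0.00059), and WT on HFD was 19.3-fold above WT on CD (log2 4.27 ± 0.65 SE, adjusted p 0.0065). The call on CD was kept in all 11 fits that left out 1 library, with log2 values from 5.28 to 5.56, and so was the call of diet in WT, with log2 values from 3.46 to 4.67. The call of diet was lost in a fit of the 5 WT libraries alone, which gave log2 4.18 with an adjusted p of 0.0861. In order of mean level, WT on CD (3.56 to 3.85 CPM, n = 2) and WT on HFD (71.2 ± 51.0 CPM, SD, n = 3) differed, whereas the later neighbours HoipA-KO on HFD (165 ± 42.0 CPM) and HoipA-KO on CD (167 ± 43.6 CPM) did not pass the test against each other (log2 -0.015 ± 0.47 SE). WT on HFD against HoipA-KO on HFD missed the threshold as well, at a log2 difference of 1.21 ± 0.48 (SE) and an adjusted p of 0.119, and it was called without WT HFD replicate 3 (log2 1.93, adjusted p 0.023).

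Ptgds, the lipocalin-type prostaglandin D synthase (chromosome 2, 25466709 to 25470046), makes the same product from an unrelated protein and had a pattern set by 1 library. It was at 0.334 and 741 CPM in WT on CD, 1.42, 0.34 and 0.145 CPM in WT on HFD, 3.25, 1.77 and 7.73 CPM in HoipA-KO on CD, and 4.46, 0.743 and 3.05 CPM in HoipA-KO on HFD. WT CD replicate 2 was 2217 times WT CD replicate 1, which lay below every HoipA-KO library, so the groups overlapped on CD. WT CD replicate 3, not tested, held 113 CPM. Ptgds was called lower in HoipA-KO on CD (log2 -6.44 ± 1.94 SE, adjusted p 0.027) and lower on HFD in WT (log2 -9.31 ± 2.23 SE, adjusted p 0.0252), but without WT CD replicate 2 these values were 3.66 (adjusted p 0.112) and 0.86 (adjusted p 0.778), neither called. The call on CD was also lost without any of the HoipA-KO CD libraries (log2 -7.36 to -6.07, adjusted p 0.0541 to 0.0885), and the call of diet without WT HFD replicate 2 or 3 (log2 -8.98 and -8.95, adjusted p 0.0931 and 0.0951). Summed epididymal markers were 15160 CPM in WT CD replicate 2, 4.13 CPM in WT CD replicate 1 and 73.6 CPM in WT CD replicate 3, with 1 to 3 of the 9 markers at or under 3 counts in these libraries. They summed to 2.11 to 15.1 CPM in WT on HFD, 11.6 to 104 CPM in HoipA-KO on CD and 4.33 to 1362 CPM in HoipA-KO on HFD. Crisp1 alone was 1282 CPM of that highest HoipA-KO sum. The part of these markers in the Ptgds level was not tested.

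Ptges, the inducible prostaglandin E synthase (chromosome 2, 30889471 to 30929863), was measured at 80.8 and 156 CPM in WT on CD, 30.7, 29.1 and 30.7 CPM in WT on HFD, 35.2, 27.7 and 47.2 CPM in HoipA-KO on CD, and 157, 31.5 and 33.3 CPM in HoipA-KO on HFD. Both tested WT CD libraries were above all WT HFD and HoipA-KO CD libraries, but WT CD replicate 3, not tested, was the lowest of all at 25.8 CPM. The differences on CD (log2 -1.69 ± 0.62 SE, adjusted p 0.0568) and between diets in WT (log2 -1.97 ± 0.62 SE, adjusted p 0.0612) missed the threshold of edgeR's quasi-likelihood test. DESeq2 called both (adjusted p 0.0154 and 0.008), and edgeR called the difference on CD under 4 other settings, such as with protein-coding genes only (adjusted p 0.0441), and the diet difference under 1 (no filter on low counts, adjusted p 0.0441). Without HoipA-KO HFD replicate 1, the library with the highest Ptges, both passed it, at log2 -1.81 (adjusted p 0.00257) and -2.08 (adjusted p 0.0103). Both also passed it without HoipA-KO HFD replicate 2 or 3, and the diet difference passed it without WT CD replicate 1. Without WT CD replicate 2 the values were -1.13 (adjusted p 0.271) and -1.42 (adjusted p 0.29).

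Ptgis, the prostacyclin synthase of vessel walls (chromosome 2, 167191805 to 167240604), lay within 11.2 to 33.1 CPM in all tested libraries. It was at 22.2 and 11.2 CPM in WT on CD, 26.1, 28.8 and 15.9 CPM in WT on HFD, 33.1, 16.2 and 27.5 CPM in HoipA-KO on CD, and 32.7, 29.1 and 25.5 CPM in HoipA-KO on HFD. The 4 groups overlapped, and the log2 fold changes between genotypes were 0.62 ± 0.38 (SE) on CD and 0.30 ± 0.33 (SE) on HFD, neither called. Its highest library was under 3 times its lowest, whereas each of the other 5 genes of the branch spanned more than 5 times over the 11 libraries tested.

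Alox5, the 5-lipoxygenase that starts leukotriene synthesis (chromosome 6, 116410077 to 116461178), was at 4.06 and 3.38 CPM in WT on CD, 7.73, 8.17 and 5.36 CPM in WT on HFD, 11.1, 9.86 and 11.2 CPM in HoipA-KO on CD, and 7.73, 14.2 and 8.96 CPM in HoipA-KO on HFD. All other libraries lay above WT on CD. It was 2.89-fold higher in HoipA-KO on CD (log2 1.53 ± 0.30 SE, adjusted p 0.00408), a call kept in all 11 fits that left out 1 library. HFD in WT gave 1.91-fold (log2 0.93 ± 0.29 SE, adjusted p 0.0599), which passed the threshold without HoipA-KO HFD replicate 2 (adjusted p 0.0364), and the genotypes on HFD differed by log2 0.54 ± 0.25 (SE, adjusted p 0.18).

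Alox5ap, the activating protein that presents arachidonic acid to Alox5 (chromosome 5, 149264767 to 149288153), rose most within the leukotriene branch. Its levels were 14.3 and 11.9 CPM in WT on CD, 38.1, 51.3 and 73.9 CPM in WT on HFD, 192, 288 and 206 CPM in HoipA-KO on CD, and 81.1, 244 and 105 CPM in HoipA-KO on HFD. No library of WT on HFD overlapped WT on CD or either HoipA-KO group. The level was 17.5-fold above WT in HoipA-KO on CD (log2 4.13 ± 0.54 SE, adjusted p 0.000667) and was called in all 11 fits that left out 1 library. In WT it was 4.15-fold higher on HFD (log2 2.05 ± 0.48 SE, adjusted p 0.0236), and this call was lost without WT CD replicate 2 (adjusted p 0.119), WT HFD replicate 2 (adjusted p 0.0563) or WT HFD replicate 3 (adjusted p 0.0827) and in a fit of the 5 WT libraries alone (adjusted p 0.0861). On HFD, HoipA-KO was 2.63-fold above WT (log2 1.40 ± 0.41 SE, adjusted p 0.0526), just short of the threshold. It was called without WT CD replicate 1 or 2, WT HFD replicate 3 or HoipA-KO HFD replicate 1 (adjusted p 0.0307 to 0.0487) and by DESeq2 (adjusted p 0.00387), and without HoipA-KO HFD replicate 2 it fell to log2 0.77 (adjusted p 0.153).

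Ltc4s, the synthase of the cysteinyl leukotriene C4 (chromosome 11, 50236461 to 50238616), did not rise with the other 2 genes of its branch. It stood at 77.1 and 29.2 CPM in WT on CD, 82.8, 81.7 and 73.0 CPM in WT on HFD, 30.8, 25.4 and 49.0 CPM in HoipA-KO on CD, and 42.6, 24.0 and 49.2 CPM in HoipA-KO on HFD. All WT HFD libraries lay above all HoipA-KO libraries, while WT on CD spanned both. The log2 fold change of HoipA-KO against WT was -0.60 ± 0.42 (SE, adjusted p 0.286) on CD and -1.04 ± 0.39 (SE, adjusted p 0.102) on HFD. The value on HFD passed the threshold without WT CD replicate 1 (adjusted p 0.0462) or 2 (adjusted p 0.0399) and in DESeq2 (adjusted p 0.0409), whereas the value on CD was 0.26 without WT CD replicate 1. Between diets in WT the value was 0.58 ± 0.43 (SE, adjusted p 0.394), and without WT CD replicate 1 it was 1.46 and called (adjusted p 0.0454).

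Alox15, the 12/15-lipoxygenase found in eosinophils and resident macrophages (chromosome 11, 70344152 to 70352031), was at 2.17 and 0.595 CPM in WT on CD, 5.73, 7.59 and 0.372 CPM in WT on HFD, 9.08, 1.93 and 5.49 CPM in HoipA-KO on CD, and 4.60, 4.01 and 1.26 CPM in HoipA-KO on HFD. The groups overlapped in every comparison and none was called, with a log2 fold change of 1.99 ± 1.15 (SE) on CD and -0.47 ± 0.95 (SE) on HFD. Within WT on HFD alone it spanned 20.4 times.

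**Figure D2:**
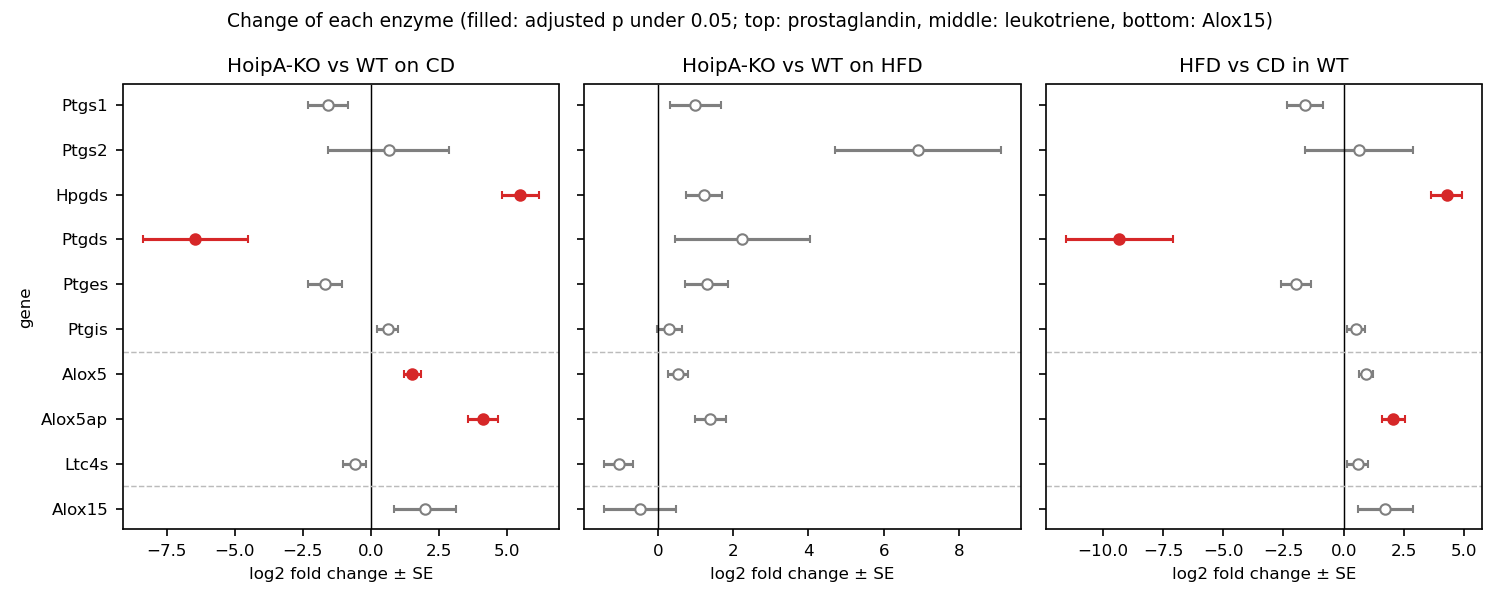
Log2 fold change ± SE of each enzyme for HoipA-KO against WT on CD, HoipA-KO against WT on HFD, and HFD against CD in WT, with the prostaglandin branch on top, the leukotriene branch in the middle and Alox15 at the bottom. Filled red points passed an adjusted p of 0.05. Hpgds and Alox5ap are called higher in the left and right panels, Alox5 in the left panel, Ptgds is called lower in both of them, and no enzyme is called in the middle panel.

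Set side by side, the branches gave different counts on CD. In the leukotriene branch 2 of 3 genes were called higher and none lower, and the median was 1.53 on the log2 scale. In the prostaglandin branch 1 of 6 was called higher and 1 lower, with a median of -0.47 and a span from -6.44 to 5.50. Over all genes tested on CD, 37.7% were called, 18.9% higher and 18.8% lower, and the counts of the prostaglandin branch are near that background. Without WT CD replicate 2 the median of the prostaglandin branch on CD was 0.30, its lowest value was -1.13 and none of its genes was called lower, whereas the leukotriene branch kept 2 genes called higher around a median of 1.41. On HFD none was called in either branch, where 11.8% of all genes were called. The medians were 1.25 over the prostaglandin branch, where all 6 estimates were above 0, and 0.54 over the leukotriene branch. Without HoipA-KO HFD replicate 1 these medians were 0.16, with 4 of the 6 estimates above 0, and 0.71, and Alox5ap was called. Between diets in WT, 1 of 3 leukotriene genes and 1 of 6 prostaglandin genes were called higher, and Ptgds was called lower. Over all genes 9.35% were called higher and 5.47% lower in that comparison. Without WT CD replicate 2 only Hpgds was called among the genes of the 2 branches. The comparison of genotypes on CD and that of diets in WT share the WT CD libraries, so they are not independent, and the difference between the branches was not tested.

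Within a library, ratios of CPM do not depend on its depth. Alox5ap to Ltc4s, written as log2, was -2.42 and -1.29 in WT on CD and -1.12, -0.67 and 0.017 in WT on HFD. It was 2.64, 3.50 and 2.08 in HoipA-KO on CD and 0.93, 3.35 and 1.10 in HoipA-KO on HFD, so no library of one genotype overlapped the other. Hpgds to Ptges was -4.50 and -5.34 in WT on CD and -0.38 or higher in the other 9 libraries tested. Ptgs2 to Ptgs1 was between -7.30 and -3.28 in 10 of the libraries tested and 2.47 in HoipA-KO HFD replicate 1. Hpgds to Ptgds was -7.58 in WT CD replicate 2 and 3.37 to 9.66 in the other libraries tested.

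**Figure D3:**
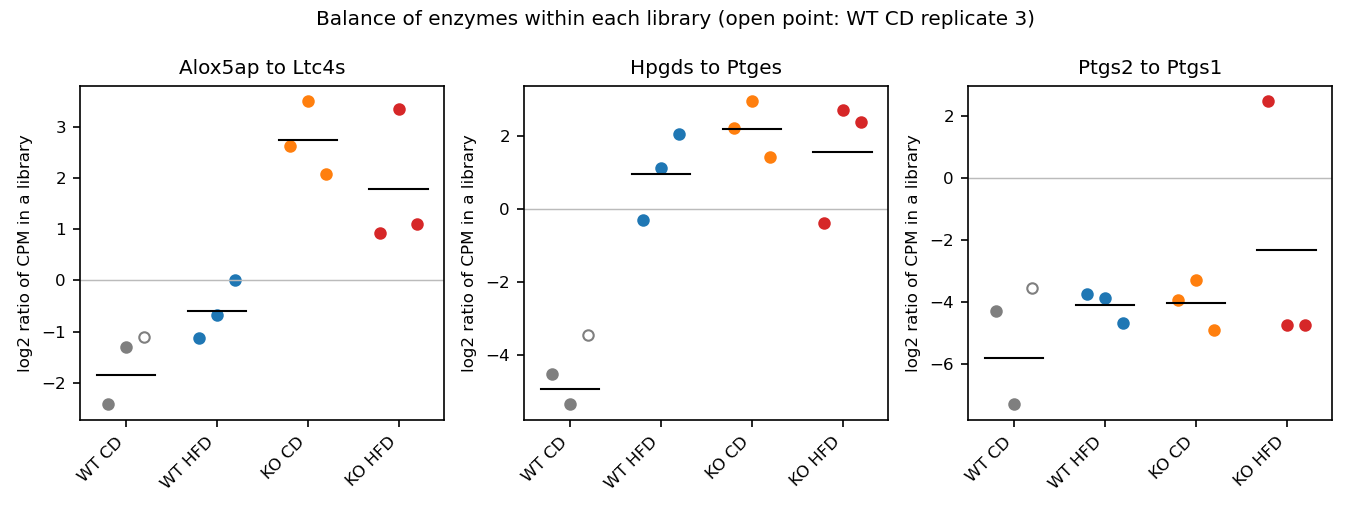
Log2 ratio of the CPM of 2 enzymes within each library, by group, for Alox5ap to Ltc4s, Hpgds to Ptges and Ptgs2 to Ptgs1. Points are libraries, black lines are group means over the libraries tested, and the open point is WT CD replicate 3. All HoipA-KO libraries lie above all WT libraries for Alox5ap to Ltc4s, and only HoipA-KO HFD replicate 1 lies above 0 for Ptgs2 to Ptgs1.

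Levels of different genes were compared per kilobase of annotated exons. In HoipA-KO on CD, Alox5ap led with 161 ± 36.7 CPM per kb (SD, n = 3), followed by Ltc4s with 34.6 ± 12.2 and Hpgds with 26.0 ± 6.79 CPM per kb, whose spreads overlapped. In WT on HFD, Ltc4s led with 78.1 ± 5.28 CPM per kb, followed by Alox5ap with 38.3 ± 12.7 CPM per kb. In WT on CD the mean of Ptgds, 225 ± 318 CPM per kb (SD, n = 2), was highest owing to replicate 2, and Ltc4s was next with 52.4 ± 33.3 CPM per kb. Ptgs2 was lowest in 3 of the 4 groups, at 0.159 to 0.25 CPM per kb.

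Whether the genotype difference itself differed between diets was tested with the interaction term. Of the 10 enzymes 2 were called, both lower on HFD than on CD, against 3.91% of all genes (0.331% higher and 3.58% lower). The genotype difference of Hpgds was smaller on HFD by a log2 value of -4.28 ± 0.77 (SE, adjusted p 0.0258), and that of Alox5ap by -2.73 ± 0.62 (SE, adjusted p 0.0448). Of the 11 fits that left out 1 library, 4 kept the call of Hpgds and 3 that of Alox5ap. For Hpgds it was lost without WT CD replicate 2, WT HFD replicate 2, any HoipA-KO CD library or HoipA-KO HFD replicate 1 or 3 (log2 -4.36 to -4.00, adjusted p 0.0573 to 0.0927). For Alox5ap it was lost without any of these libraries or without WT HFD replicate 3 (log2 -2.77 to -2.33, adjusted p 0.0825 to 0.137).

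HoipA-KO on CD and WT on HFD, both far above WT on CD for Hpgds and Alox5ap, were also compared directly. Alox5ap alone was called among the 10, 4.21-fold higher in HoipA-KO on CD (log2 2.07 ± 0.41 SE, adjusted p 0.0152), where 15.8% of all genes were called (6.78% higher and 9.07% lower). That call was lost without WT HFD replicate 1 (adjusted p 0.0623), WT HFD replicate 2 (adjusted p 0.0633) or HoipA-KO CD replicate 2 (adjusted p 0.0527). Hpgds gave a log2 difference of 1.23 ± 0.48 (SE, adjusted p 0.107), which passed the threshold without WT HFD replicate 3 (log2 1.93, adjusted p 0.0193). Ltc4s gave -1.17 ± 0.39 (SE, adjusted p 0.0658) and passed it without WT CD replicate 1 (adjusted p 0.0272) or 2 (adjusted p 0.0234).

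Markers of macrophages and mast cells moved with the enzymes that rose. The 9 macrophage markers summed to 411 and 546 CPM in WT on CD, 1466 to 4708 CPM in WT on HFD, 8273 to 10080 CPM in HoipA-KO on CD and 5423 to 10241 CPM in HoipA-KO on HFD, none of them at or under 3 counts, and on CD 8 of 9 were called higher. The 8 mast cell markers summed to 25.0 and 32.7 CPM, 32.3 to 218 CPM, 574 to 690 CPM and 320 to 869 CPM in the same order, with 7 of 8 called higher on CD and 1 to 2 at or under 3 counts in WT on CD. On HFD 4 of 9 macrophage and 3 of 8 mast cell markers were called higher. Over all genes 18.9% were called higher on CD and 4.2% on HFD. Of 5 neutrophil markers tested 1 was called higher on each diet, and of 3 eosinophil markers 2 on CD and 0 on HFD. In bulk tissue, more cells of a type and more RNA per cell cannot be told apart. Per 1000 CPM of macrophage markers, Alox5ap was 26.3 and 29.0 CPM in WT on CD, 15.7 to 26.0 CPM in WT on HFD, 22.5 to 28.6 CPM in HoipA-KO on CD and 13.7 to 23.8 CPM in HoipA-KO on HFD, so relative to these markers it overlapped WT on CD or lay below it in every group. On the same scale Hpgds was 6.52 and 9.36 CPM in WT on CD and 13.7 to 26.7 CPM in the other groups, higher in all 9 of those libraries. Alox5 was 7.43 and 8.23 CPM in WT on CD, 1.14 to 5.28 CPM in WT on HFD and 0.978 to 1.43 CPM in both HoipA-KO groups, lower in all 9. Per 1000 CPM of mast cell markers, Hpgds was 109 and 154 CPM in WT on CD, 577 to 767 CPM in WT on HFD and 219 to 378 CPM in both HoipA-KO groups. Ltc4s was 63.1 to 110 CPM per 1000 CPM of the 4 endothelial markers in the 11 libraries. On this scale WT on HFD (96.7 to 109 CPM) lay above WT on CD (63.1 and 94.9 CPM). Both HoipA-KO groups overlapped each WT group, and 1 of the endothelial markers was called lower in HoipA-KO on each diet. Per 1000 CPM of adipocyte markers, Ltc4s was at most 1.60 CPM in WT on CD, 2.84 to 3.39 CPM in WT on HFD and 3.72 to 6.23 CPM in both HoipA-KO groups, and Ptges was 1.67 and 7.40 CPM, 1.03 to 1.43 CPM and 4.22 to 19.9 CPM. Adipocyte markers went the other way, with 9 of 10 called lower in HoipA-KO on CD and 10 of 10 on HFD, and the part of cell composition in these results was not tested.

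**Figure D4:**
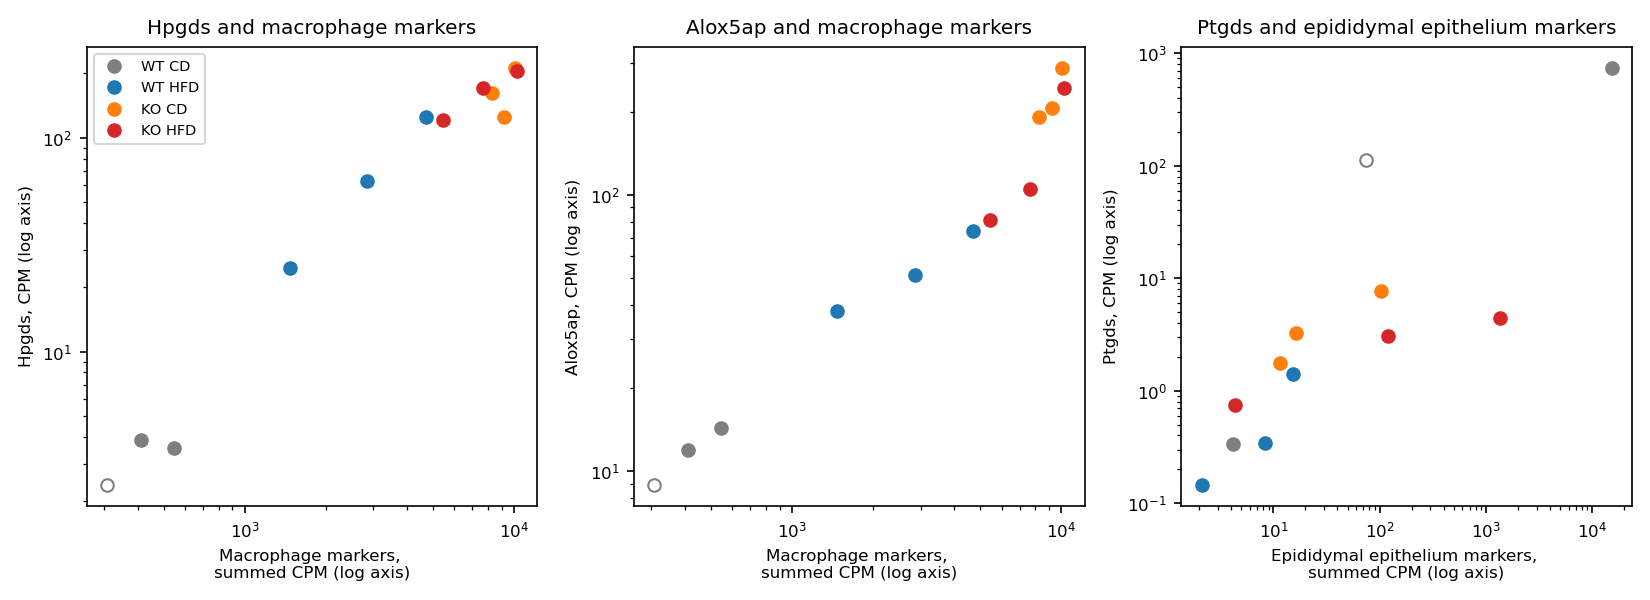
Level of Hpgds and of Alox5ap against the summed CPM of 9 macrophage markers, and of Ptgds against the summed CPM of 9 epididymal markers, in the 12 libraries (log axes). Points are libraries coloured by group, and the open point is WT CD replicate 3. WT CD libraries lie lowest on both axes in the left and middle panels, and WT CD replicate 2, at 15160 CPM of epididymal markers and 741 CPM of Ptgds, lies apart in the right panel.

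The rest of the pathway was read from a list of 48 genes, of which 44 were tested. On CD 12 were higher and 6 lower in HoipA-KO, around a median of 0.19 on the log2 scale, and on HFD 4 were higher and 7 lower, around a median of 0.29. The share of all tested genes that passed was 37.7% for CD and 11.8% for HFD, and 18 of 44 on CD is near that background. In WT, 8 rose and 1 fell on HFD (14.8% of all genes called), and in HoipA-KO mice none was called between diets by edgeR or DESeq2.

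Among the 10 genes around arachidonate release, 3 were higher and 2 lower on CD. Pla2g4a, the cytosolic phospholipase that frees arachidonic acid, was at 4.46 ± 1.85 CPM (SD, n = 2) in WT on CD and 20.5 ± 5.05 CPM (SD, n = 3) in HoipA-KO on CD (log2 2.21 ± 0.44 SE, adjusted p 0.00443), and HFD raised it in WT as well (log2 1.47 ± 0.43 SE, adjusted p 0.0474), a call that only 2 of 11 fits leaving out 1 library kept, those without HoipA-KO HFD replicate 1 or 3 (adjusted p 0.0579 to 0.154 in the others). Pla2g7, which hydrolyses platelet-activating factor and oxidised phospholipids, rose from 17.7 ± 0.53 to 347 ± 88.0 CPM on CD (log2 4.30 ± 0.62 SE, adjusted p 0.000959) and was also higher on HFD (log2 1.99 ± 0.47 SE, adjusted p 0.0295). The lysosomal phospholipase Pla2g15 was higher by log2 2.16 on CD and 0.94 on HFD, both called. On HFD the calls of Pla2g7 and Pla2g15 were lost with all 12 libraries (adjusted p 0.0597 and 0.0829) and without WT HFD replicate 1 or 2, HoipA-KO CD replicate 1 or HoipA-KO HFD replicate 2, and that of Pla2g15 also without HoipA-KO HFD replicate 3 (adjusted p 0.0503 to 0.115). Plaat3, the abundant phospholipase of adipocytes, fell from 600.3 ± 314 to 133 ± 34.5 CPM on CD (log2 -2.18 ± 0.38 SE, adjusted p 0.00233) and by log2 -2.21 ± 0.36 (SE, adjusted p 0.0107) on HFD, both kept with all 12 libraries and in all 11 fits that left out 1.

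Of 14 other synthases tested, 3 were higher and 1 lower on CD and none was called on HFD by edgeR. Tbxas1, the thromboxane synthase of platelets and macrophages, was at 4.89 ± 0.24 CPM in WT on CD, 51.3 ± 30.4 CPM in WT on HFD, 134 ± 16.2 CPM in HoipA-KO on CD and 118 ± 28.9 CPM in HoipA-KO on HFD. It rose 27.5-fold with the deletion on CD (log2 4.78 ± 0.56 SE, adjusted p 0.000513) and 10.5-fold with HFD in WT (log2 3.39 ± 0.52 SE, adjusted p 0.00656). Dpep2, a dipeptidase that converts leukotriene D4 to leukotriene E4, rose 35.8-fold on CD (log2 5.16 ± 0.56 SE, adjusted p 0.000452) and 13.8-fold with HFD in WT (log2 3.79 ± 0.52 SE, adjusted p 0.00617). For both genes the call of diet was lost in a fit of the 5 WT libraries alone (adjusted p 0.0861). Akr1b3, an aldo-keto reductase with prostaglandin F synthase activity, was higher on CD by log2 1.21, and Cbr1, a carbonyl reductase acting on prostaglandin E2, was lower by -0.78. Cbr1 was not called with all 12 libraries (log2 -0.47, adjusted p 0.247), without WT CD replicate 2 or HoipA-KO CD replicate 2 (adjusted p 0.0518 to 0.148), or in a fit of the 2 groups alone (adjusted p 0.0611).

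Genes of breakdown and transport gave 2 higher and 2 lower of 9 on each diet. Ptgr1, which inactivates leukotriene B4 and prostaglandins, was higher by log2 3.80 ± 0.59 (SE, adjusted p 0.00133) on CD and 1.60 ± 0.46 (SE, adjusted p 0.0499) on HFD. The latter call was lost with all 12 libraries (adjusted p 0.104) and kept in only 3 of 11 fits that left out 1 library, those without HoipA-KO HFD replicate 3 or either WT CD library (adjusted p up to 0.172 in the others). Cyp4f18, the leukotriene B4 hydroxylase of myeloid cells, was higher by 2.17 and 1.11, and Ephx2, which hydrolyses epoxides of arachidonic acid, was lower by -2.07 and -1.81, all 4 called. Without WT HFD replicate 1 or 2 Cyp4f18 was not called on HFD (adjusted p 0.0502 to 0.0618), and Ephx2 was called in all 11 such fits. Ptgr2 was lower by -0.68 and -0.81, both called, and with all 12 libraries neither was (adjusted p 0.144 and 0.0883), nor was the first without WT CD replicate 1 (adjusted p 0.138) or in a fit of the 2 groups alone (adjusted p 0.0982), or the latter without replicate 2 or 3 of HoipA-KO HFD or replicate 1 or 2 of WT HFD (adjusted p 0.0571 to 0.0847).

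Of 11 receptors tested, 4 were higher and 1 lower on CD, and none was higher and 2 were lower on HFD. The prostacyclin receptor Ptgir rose by log2 2.91 ± 0.44 (SE, adjusted p 0.00123) on CD and by 1.87 ± 0.42 (SE, adjusted p 0.0207) with HFD in WT, and the prostaglandin E2 receptor Ptger2 rose by 2.90 ± 0.46 (SE, adjusted p 0.00141) on CD. Ptger3, the prostaglandin E2 receptor that restrains lipolysis in adipocytes, fell from 57.5 ± 29.8 to 18.4 ± 7.81 CPM on CD (log2 -1.64 ± 0.46 SE, adjusted p 0.0199) and from 109.7 ± 37.3 to 22.0 ± 7.77 CPM on HFD (log2 -2.31 ± 0.44 SE, adjusted p 0.0152). With all 12 libraries the fall on CD was -1.32, with an adjusted p of 0.0589, and it was not called without WT CD replicate 1 or HoipA-KO CD replicate 2 (adjusted p 0.0615 to 0.166) or in a fit of the 2 groups alone (adjusted p 0.0551). The fall on HFD was not called without replicate 2 or 3 of HoipA-KO HFD or replicate 1 or 2 of WT HFD (adjusted p 0.0516 to 0.0648). Cysltr1, a receptor of the cysteinyl leukotrienes, was higher on CD by 1.51 ± 0.33 (SE, adjusted p 0.0066) and in WT on HFD by 1.65 ± 0.33 (SE, adjusted p 0.0129), with a genotype difference on HFD of -0.23 ± 0.28 (SE, adjusted p 0.586). Fits of the 2 groups alone called neither rise of Cysltr1 (adjusted p 0.0605 and 0.0861) nor the rise of Ptgir with HFD (adjusted p 0.112). Both rises with HFD were also lost without WT CD replicate 2 and that of Ptgir without WT HFD replicate 3 (adjusted p 0.0648 to 0.0898).

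**Figure D5:**
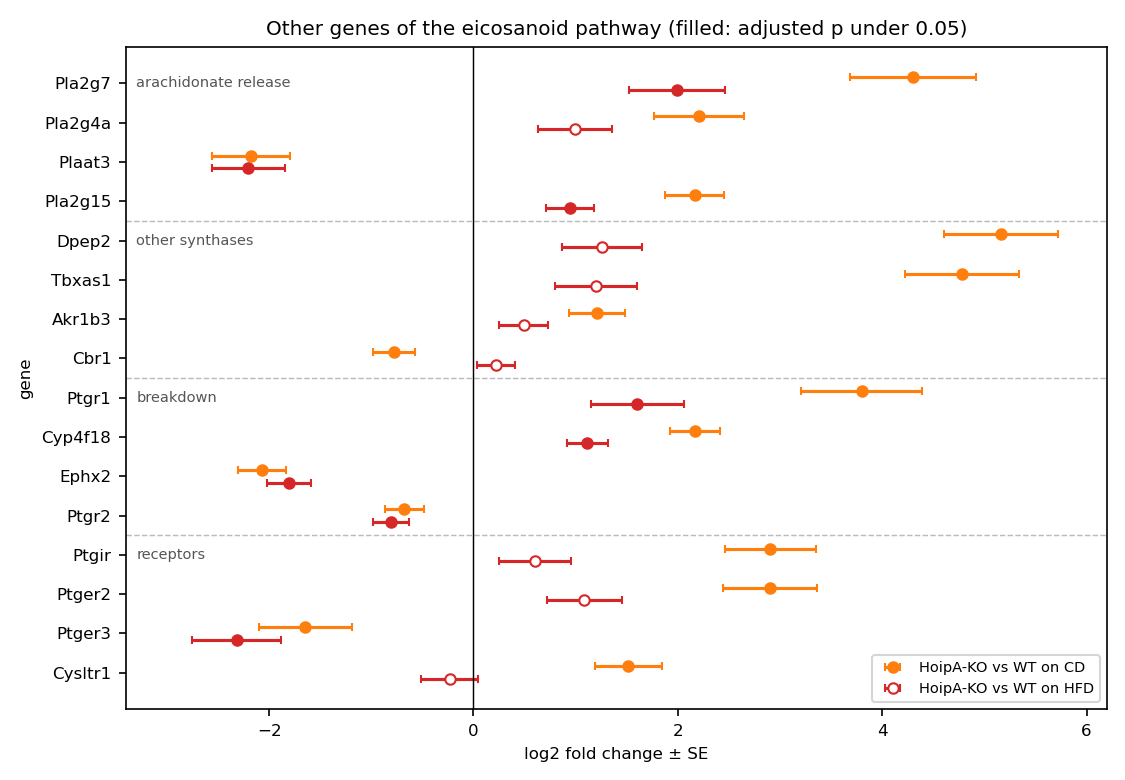
Log2 fold change ± SE of HoipA-KO against WT on CD (orange) and on HFD (red) for 16 other genes of the pathway, grouped as arachidonate release, other synthases, breakdown and receptors. Filled points passed an adjusted p of 0.05. All 16 are called on CD and 8 on HFD, where Tbxas1, Dpep2, Ptgir, Ptger2 and Cysltr1 lie nearer to 0 than on CD. The 16 were chosen among genes called between genotypes, by the size of their change on CD. Both the counts and the smaller changes on HFD therefore follow in part from that choice.

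For each enzyme, the 3 genes with the most similar pattern were taken by Pearson's r of log2(CPM + 1) over the 11 libraries, among 9828 genes with a mean of at least 10 CPM. Hpgds was most like C3ar1 (r = 0.999), Fyb and Slc37a2, and Alox5ap was most like Ncf1 (r = 0.997), Tmem165 and BC028528. Alox5 paired with St3gal5 (r = 0.948), Tgfbi and Ecm1, and Alox15 with the mesothelial marker Upk3b (r = 0.935), Fmod and Spock2. Ptgs2 was most like Pcp4 (r = 0.980), Ppp1r12b and Csrp1, and Ptgds was most like Prom2 (r = 0.992), Cuzd1 and Asb11, both patterns set by 1 library. Ptgs1 followed Mal (r = 0.961), Fads2 and Crisp1, Ptges followed Fgfr2 (r = 0.920), Xrcc5 and Serpina1f, Ptgis followed Serpine2 (r = 0.944), Tgfb3 and Igfbp6, and Ltc4s followed Fam43a (r = 0.980), Tinagl1 and Phlda3. The 11 libraries fall into groups that differ in many genes, and these values describe likeness only.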

How the data were processed

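Per the labels, TruSeq stranded libraries of poly(A) RNA were sequenced, and the submitters' processing notes name Trim Galore 0.6.7, STAR 2.7.10a, Salmon 1.5.2 and mouse build GRCm38. The authors deposited Salmon estimated counts per gene, unnormalized, for all genes and for protein-coding genes. The deposited results of their own comparisons (DESeq2 1.38.1), which hold fold changes, p-values and CPM, were not used.

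Estimated counts were rounded and tested in R 4.3.3 with edgeR 4.0.16: filterByExpr, TMM, a quasi-likelihood fit with 1 mean per group over 11 libraries (WT CD replicate 3 left out) and Benjamini-Hochberg adjustment over all 18427 genes, called at an adjusted p under 0.05. The SE of a log2 fold change is its size divided by the square root of F, with a prior count of 0.125. CPM levels use TMM factors of all 12 libraries. Log2 ratios add 0.5 counts. Replicates are separate pools of 3 mice. DESeq2 1.42.0 and the other settings below are alternatives. On simulated counts for HoipA-KO against WT on CD (18427 genes), the test recovered 9 of 66 genes changed by 1 log2 unit, 38 of 67 changed by 2 and 43 of 67 changed by 3, with 2 false calls. Only these genes were changed in the simulation, whereas 37.7% of genes were called in the data. The adjustment was therefore stricter there, and the rates do not give the power of the real comparison. The totals and the floor of 3 counts cover counting error only.

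All 10 enzymes are named; of other pathway genes, those called between genotypes on either diet are named, at most 4 per role, by absolute log2 fold change on CD. For a symbol with more than 1 row, the row with the higher total was used. The enzymes, the pathway and marker lists and the alternatives were chosen with earlier results of these data known. Gene positions are from GENCODE M21 (GRCm38) and upstream sequences from RefSeq (GRCm38.p6).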

Additional observations from a re-analysis of the deposited data

Results flagged for a closer look

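The genotype difference on HFD was smaller than that on CD, by the interaction term of edgeR's quasi-likelihood test, for 2 enzymes and 3 other named genes of the pathway. Of all genes, 3.91% were called in the interaction (0.331% higher and 3.58% lower), and of the 44 other pathway genes tested 4 were called lower. The other named genes were chosen by the size of their change on CD. The interaction contains that change, so the choice favours genes with a smaller difference on HFD. The log2 difference of differences was -4.28 ± 0.77 (SE, adjusted p 0.0258) for Hpgds and -2.73 ± 0.62 (SE, adjusted p 0.0448) for Alox5ap. Among the other genes it was -3.91 ± 0.62 (SE, adjusted p 0.0256) for Dpep2, -3.58 ± 0.63 (SE, adjusted p 0.0256) for Tbxas1 and -2.31 ± 0.54 (SE, adjusted p 0.0485) for Ptgir. Leaving out 1 library at a time, Hpgds, Dpep2 and Tbxas1 kept the call in 4 of 11 fits and Alox5ap and Ptgir in 3. All 5 lost it without WT CD replicate 2, WT HFD replicate 2, any HoipA-KO CD library or HoipA-KO HFD replicate 1 or 3, and Alox5ap and Ptgir also without WT HFD replicate 3. The adjusted p in those fits was 0.0573 to 0.0909 for Dpep2, 0.0576 to 0.092 for Tbxas1 and at least 0.0827 for Ptgir. In all 5 the level of WT on HFD lay above that of WT on CD in every library tested. Macrophage markers gave the same direction, with 6 of 9 called lower in the interaction and a median of -3.27, and their part in these values was not tested.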

How the results depend on the processing

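With all 12 libraries, and in a fit with WT CD replicate 3 used instead of replicate 2, chosen after seeing the data, Hpgds, Alox5ap and Alox5 kept their calls on CD, and so they did under every other setting tried. Over 60 results of single enzymes and 1238 alternative values, 1110 kept their direction and side of the threshold, 51 gained a call, 35 lost it and 42 changed sign. WT on CD rests on 2 libraries, so its mean is less well set than those of the other groups, while all 4 groups share 1 estimate of the spread. Ptgds rests on WT CD replicate 2 and Ptgs2 on HoipA-KO HFD replicate 1, and Ptgs1 on the former on CD and on the latter on HFD.

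Counts of enzymes called changed as follows, and the cause was not tested. On HFD, 1 enzyme instead of 0 was called between genotypes with DESeq2 size factors, with library size only, with at least 10 counts in every library or with protein-coding genes only (Alox5ap each time), 1 in a fit of the 2 groups alone (Ltc4s) and 3 by DESeq2. For diet in WT the count was 0 of 10 in a fit of the 2 groups alone and 5 by DESeq2. For HoipA-KO on CD against WT on HFD it was 2 with at least 10 counts and 3 in a fit of the 2 groups alone or by DESeq2, and for the interaction 4 by DESeq2 and 1 with WT CD replicates 1 and 3. Over all genes, DESeq2 called 4410 of 18189 on HFD and 4551 of 18189 for diet in WT. It called 4956 of 18189 for HoipA-KO on CD against WT on HFD and 2350 of 17477 for the interaction. Of the other pathway genes, 5 were called on HFD with all 12 libraries or with WT CD replicates 1 and 3 and 17 by DESeq2, 0 for diet in WT in a fit of the 2 groups alone, 9 for HoipA-KO on CD against WT on HFD with all 12 libraries or with WT CD replicates 1 and 3, and for the interaction 11 by DESeq2 and 2 with WT CD replicates 1 and 3.

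With the replicate number as a block, 1 enzyme was called on HFD (Ltc4s), 2 for HoipA-KO on CD against WT on HFD, 1 for the interaction (Hpgds, while Alox5ap had an adjusted p of 0.0692) and 2 other pathway genes for the interaction, and Ptgds lost its calls on CD (log2 -6.97, adjusted p 0.106) and for diet in WT (adjusted p 0.0951). The numbers were not taken to pair the libraries. Deviations of same-numbered libraries from their group means correlated at -0.38 to 0.51, with 6 of 15 pairs over 0.1. Those of differently numbered libraries correlated at -0.52 to 0.43, with 8 of 30 pairs over 0.1. The 2 WT CD libraries deviate by equal and opposite amounts, so their pairs are not independent. These overlapping ranges do not settle whether the numbers pair the libraries.

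Leaving out 1 library at a time, the enzymes called numbered 3 to 6 on CD, 0 to 2 on HFD, 1 to 6 for diet in WT, 0 for diet in HoipA-KO, 0 to 2 for HoipA-KO on CD against WT on HFD and 0 to 5 for the interaction. The other pathway genes called numbered 16 to 23, 3 to 14, 2 to 15, 0, 5 to 18 and 0 to 12 in the same order. The share of all genes called is not given for these fits or for the other edgeR settings above. These counts therefore do not set the enzymes apart from other genes. For enzymes whose log2 value changed sign in such a fit, the ranges follow. In HoipA-KO against WT on CD these ranges were Ptgs1 -2.31 to 0.087, Ptgds -7.44 to 3.66 and Ltc4s -1.13 to 0.26. In HoipA-KO against WT on HFD these ranges were Ptgs1 -0.049 to 1.33, Ptgs2 -0.82 to 7.49 and Alox15 -1.01 to 0.12. In HFD against CD in WT these ranges were Ptgs1 -2.34 to 0.041 and Ptgds -10.55 to 0.86. In HFD against CD in HoipA-KO these ranges were Ptgs1 -0.085 to 1.30, Ptgs2 -0.82 to 7.45, Hpgds -0.20 to 0.20, Ptgds -1.14 to 0.15, Ptges -0.17 to 1.37, Ptgis -0.057 to 0.42, Alox5 -0.36 to 0.12 and Ltc4s -0.069 to 0.47. In HoipA-KO on CD against WT on HFD these ranges were Ptgs1 -0.16 to 0.26, Ptgs2 -0.34 to 0.39, Ptgis -0.12 to 0.36 and Alox15 -0.29 to 0.86. In the interaction these ranges were Ptgs2 -1.38 to 6.91, Ptgds -1.49 to 9.93, Ptgis -0.90 to 0.094 and Ltc4s -1.31 to 0.10.

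Under other settings, Ptgs1 changed sign with WT CD replicates 1 and 3 (0.42 on CD and 0.40 for diet in WT). For diet in HoipA-KO, Hpgds did so at 0.084 (library size), 0.012 (at least 10 counts), 0.0038 (protein-coding genes) and 0.0019 (2 groups alone), and Alox5 at 0.0078 (library size). For HoipA-KO on CD against WT on HFD, Ptgs2 did so at -0.015 (protein-coding genes) and -0.0040 (WT CD replicates 1 and 3). Ptgds gave no value with at least 10 counts in every library, Ptgs2 had no adjusted p from DESeq2, and the interaction uses all groups in any case.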

Other observations

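The naming rule left out 5 other pathway genes that were called in at least 1 comparison, named here after their values were seen. Ptgfr, the prostaglandin F receptor, rose with HFD in WT by log2 1.58 ± 0.32 (SE, adjusted p 0.0131) and was lower in HoipA-KO on HFD by -1.67 ± 0.27 (SE, adjusted p 0.0113), with an interaction of -1.84 ± 0.41 (SE, adjusted p 0.0426). The fall was called in all 11 fits that left out 1 library, the rise in all but that without WT CD replicate 2 (adjusted p 0.0598) and not in a fit of the 5 WT libraries alone (adjusted p 0.0877), and the interaction only without WT CD replicate 1 (adjusted p up to 0.111 in the others). Mgll, which cleaves monoacylglycerols and can thereby release arachidonic acid, was lower in HoipA-KO by -1.22 ± 0.28 (SE, adjusted p 0.00856) on CD and -1.43 ± 0.26 (SE, adjusted p 0.0141) on HFD, of which the latter was not called with all 12 libraries (adjusted p 0.0502) or without WT HFD replicate 1 or 2 or HoipA-KO HFD replicate 2, and the former not without WT CD replicate 1 (adjusted p 0.0603). Pla2g6, a calcium-independent phospholipase, was lower on HFD by -0.74 ± 0.21 (SE, adjusted p 0.0484), and was not called with all 12 libraries (adjusted p 0.504) or in 7 of 11 fits that left out 1 library (those without WT HFD replicate 1 or 2, HoipA-KO CD replicate 1 or 2 or any HoipA-KO HFD library, adjusted p 0.055 to 0.15). Ptger4, a prostaglandin E2 receptor, was higher on CD by 0.85 ± 0.25 (SE, adjusted p 0.0239), and was not called without WT CD replicate 2 or HoipA-KO CD replicate 2 or 3 (adjusted p 0.0634 to 0.139) or in a fit of the 2 groups alone (adjusted p 0.0732). Prxl2b, a prostaglandin F synthase, was called only between HoipA-KO on CD and WT on HFD, at -1.42 ± 0.41 (SE, adjusted p 0.0427), a call lost with all 12 libraries (adjusted p 0.101) and in 6 of 11 fits that left out 1 (those without WT HFD replicate 1 or 2, any HoipA-KO CD library or HoipA-KO HFD replicate 3).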
